A study of Mus musculus with 12 samples.

Results

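The simple epithelial keratins are the intermediate filament proteins of single-layered epithelia such as gut, ducts and glands. The members described here are Krt7, Krt8, Krt18, Krt19 and Krt20, taken by gene symbol from the deposited expression table, and all 5 were found among its 24537 genes, of which 55 are keratin genes. RNA was sequenced from 12 mouse cell cultures in 4 groups of 3, and the mouse numbers 1 to 3 mark the same animals in every group. Every group carried the strain Pdgfra-creERxLSL-tdTomato, in which an inducible Cre under Pdgfra control can switch on a red reporter. The first group was Pdgfra (+) ADSCs, stromal cells grown out of subcutaneous adipose tissue in DMEM with 10% FBS. The other groups grew in a keratinocyte medium without serum, so comparisons with ADSCs are also comparisons of media. They were in vitro iSEPs (induced stratified epithelial progenitor cells, converted from those ADSCs in the dish), in vivo iSEPs (epithelial cells cultured from epithelial tissue that had formed from Pdgfra (+) ADSCs in the animal) and primary keratinocytes of back skin. The labels give neither the converting factors nor the age or sex of the animals. The question put to these genes is whether cells converted from a mesenchymal source carry the simple epithelial keratins, and at what level beside skin keratinocytes.

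Keratin filaments are built from pairs of 1 type I and 1 type II chain, and a chain without a partner is normally degraded. Krt8 (type II) and Krt18 (type I) form the founding pair of simple epithelia, Krt7 is a type II keratin of ducts and glandular epithelia, and Krt19 and Krt20 are type I keratins, Krt20 being known from gut lining, urothelium and Merkel cells. Basal keratinocytes of the epidermis instead use Krt5 with Krt14, and cultured keratinocytes can carry simple keratins at a low level beside them.

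The members lie in both keratin gene clusters of the mouse (mm10, transcripts as listed in the table). Krt7 spans chr15:101412403-101427806 on the plus strand, Krt8 chr15:101996711-102004342 on the minus strand and Krt18 chr15:102028216-102032026 on the plus strand. Krt18 is the type I gene that sits at the edge of the type II cluster, 23873 bases from Krt8 and on the opposite strand, with no protein-coding gene between them. Krt20 spans chr11:99428386-99438153 and Krt19 chr11:100140811-100143699, both on the minus strand, in the type I cluster.

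The 250 bases before the start site of 4 members were taken from RefSeq (GRCm38.p6) and are shown because Krt7, Krt8 and Krt18 stood higher in the keratinocytes and Krt20 in the ADSCs. Krt19 was not matched in that table. Each is written 5′ to 3′ on the gene's own strand, and capitals mark matches on either strand to TATAAA (the TATA box), GGGCGG (the GC box), CAGGTG (an E-box form bound by ZEB and SNAI factors) and AGGAAG (the ETS core). The windows are chr15:101412153-101412402 for Krt7, chr15:102004343-102004592 for Krt8, chr15:102027966-102028215 for Krt18 and chr11:99438154-99438403 for Krt20.
Krt7: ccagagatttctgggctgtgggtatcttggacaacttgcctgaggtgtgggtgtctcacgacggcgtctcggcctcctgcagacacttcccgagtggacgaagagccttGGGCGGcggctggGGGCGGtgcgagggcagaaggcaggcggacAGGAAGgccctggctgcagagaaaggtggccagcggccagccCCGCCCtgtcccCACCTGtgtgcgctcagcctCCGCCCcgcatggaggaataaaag
Krt8: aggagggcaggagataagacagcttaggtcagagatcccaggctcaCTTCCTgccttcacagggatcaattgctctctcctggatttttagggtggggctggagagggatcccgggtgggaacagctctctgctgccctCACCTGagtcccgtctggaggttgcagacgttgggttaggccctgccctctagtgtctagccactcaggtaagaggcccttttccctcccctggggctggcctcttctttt
Krt18: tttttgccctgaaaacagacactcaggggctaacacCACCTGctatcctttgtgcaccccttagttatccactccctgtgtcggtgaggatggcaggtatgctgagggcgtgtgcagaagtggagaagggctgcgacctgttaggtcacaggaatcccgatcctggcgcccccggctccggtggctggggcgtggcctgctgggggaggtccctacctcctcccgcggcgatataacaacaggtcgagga
Krt20: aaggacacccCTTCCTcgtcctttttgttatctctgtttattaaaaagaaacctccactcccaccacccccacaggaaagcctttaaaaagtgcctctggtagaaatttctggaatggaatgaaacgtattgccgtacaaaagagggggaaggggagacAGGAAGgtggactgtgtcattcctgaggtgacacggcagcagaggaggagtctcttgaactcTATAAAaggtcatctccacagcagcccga
The E-box form CAGGTG was found 1 time in each of Krt7 (first base at -44 from the start site), Krt8 (-111) and Krt18 (-214), not in Krt20, and in 17.3% of 32536 promoter windows of that length. TATAAA stood at -29 in Krt20 and in none of the other members, against 12.3% of windows. GGGCGG occurred 4 times in Krt7 only, against 33% of windows, and AGGAAG occurred 2 times in Krt20 and 1 time each in Krt7 and Krt8, against 29.6%. Of motifs not shown in capitals, GCCNNNGGC (TFAP2) matched 2 times in Krt7, 1 of these overlapping a GC box, and 1 time in Krt18 (13.8% of windows), while TGANTCA (AP-1) and AACNNGTT (GRHL) had no match in the 4 windows (6.73% and 3.62% of windows).

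Values are FPKM, the fragments per kilobase of listed transcript scaled to library depth. Per library, 20950000 to 27720000 reads fell in listed genes, with 10845 to 11349 genes at 1 FPKM or more. The labelled cell types matched their defining markers: 10 ADSC markers summed to 4883 to 6455 FPKM in ADSCs against 318 to 376 in keratinocytes, and 10 keratinocyte markers to 24185 to 26077 in keratinocytes against 15.4 to 17.3 in ADSCs. Pdgfra itself stood at 22.8 to 46 FPKM in ADSCs and at 0.68 to 0.917 in keratinocytes. The in vivo iSEP library of mouse 3 stood apart from the other in vivo iSEP libraries, with 33 genes more than 3 log2 units above both of them, where the other 11 libraries had 0 to 17 such genes in their own groups. At 1 log2 unit it had 336 such genes, against 1 to 282 in the other libraries. Results that rest on it are given with and without it. Because its Krt8 and Krt18 values drew attention to it, values without it are a description and no call is taken from them. Because these are bulk cultures, fewer cells of a type and less RNA per cell cannot be told apart.

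**Figure D1:**
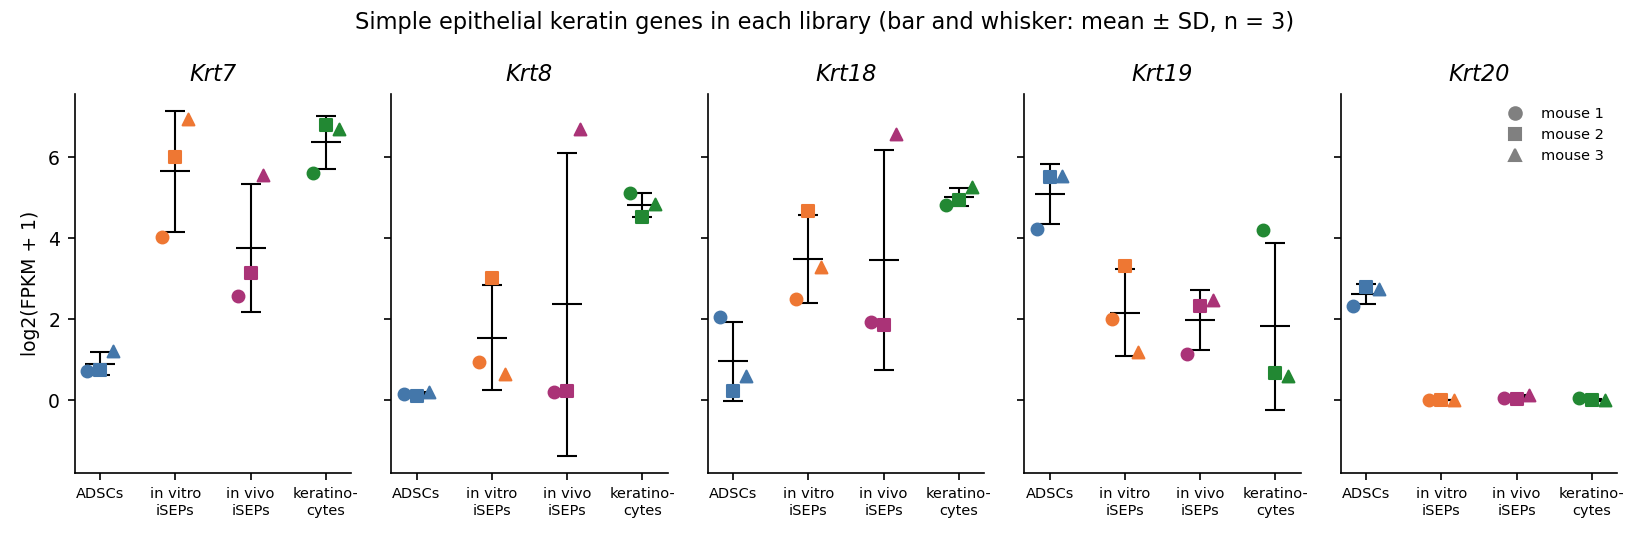
log2(FPKM + 1) of each simple epithelial keratin in the 12 libraries, by group, with the symbol giving the mouse and the bar and whisker the mean ± SD of 3 libraries. Krt7, Krt8 and Krt18 were high in keratinocytes and low in ADSCs, Krt19 and Krt20 were highest in ADSCs, and 1 in vivo iSEP library lies far above the other in vivo iSEP libraries for Krt8 and Krt18.

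Of the type II members, Krt7 had the highest mean of the 5 genes in in vitro iSEPs and in keratinocytes at the transcript lengths of the table. Its transcript is listed with 1575 bases, where GENCODE gives 4094, so its level beside other genes depends on that length. The ratio of its FPKM between groups does not, but a difference of log2(FPKM + 1) does, through the added 1. It stood at 0.657, 0.67 and 1.34 FPKM in ADSCs of mice 1, 2 and 3, and at 15.3, 63.1 and 123 in in vitro iSEPs. The in vivo iSEPs held 5, 7.82 and 46.2, and the keratinocytes 47.6, 110 and 103. All ADSC libraries lay below all other libraries, and the in vivo iSEP libraries all lay below the keratinocyte libraries. The group means ranked keratinocytes (87.2 ± 34.4 FPKM, SD, n = 3), in vitro iSEPs (67.2 ± 54), in vivo iSEPs (19.7 ± 23) and ADSCs (0.889 ± 0.391). Libraries of neighbours in that order overlapped, except those of in vivo iSEPs and ADSCs.

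Differences were tested with limma on log2(FPKM + 1), in 1 fit of 4 group means to 12 libraries, with Benjamini-Hochberg adjustment over the 12364 genes kept, all 5 members among them. Calls were made where the adjusted p was below 0.05. The added 1 shrinks the log2 difference of genes at low FPKM, and each ratio divides the mean FPKM of the groups. Krt7 rose by 4.76 log2 units (SE 0.805, limma adjusted p = 0.000468) in in vitro iSEPs against ADSCs, a ratio of 75.6 (44.1 without the in vitro iSEPs of mouse 3). In in vivo iSEPs it rose by 2.86 (adjusted p = 0.0126, ratio 22.1), and in keratinocytes by 5.47 (adjusted p = 0.000168, ratio 98). These comparisons share the 3 ADSC libraries. Without the in vivo iSEPs of mouse 3, the in vivo difference was 1.96 log2 units and the ratio 7.21. The in vivo call was lost when all cells of mouse 2 were left out (limma adjusted p = 0.0939).

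Krt8, the type II chain of the founding pair, was close to the detection limit in ADSCs at 0.122, 0.076 and 0.16 FPKM, which is 4 to 8 reads per library. In vitro iSEPs held 0.934, 7.17 and 0.562 FPKM, in vivo iSEPs 0.159, 0.166 and 103, and keratinocytes 33.6, 21.9 and 27.9. The in vivo iSEPs of mice 1 and 2 were thus close to the ADSC level, while those of mouse 3 exceeded every keratinocyte library. Against ADSCs, Krt8 rose by 4.67 log2 units in keratinocytes (SE 1.39, limma adjusted p = 0.0153, ratio 233). It was not called in in vitro iSEPs (1.38, adjusted p = 0.427), although no library of that group overlapped the ADSCs, nor in in vivo iSEPs (2.22, adjusted p = 0.216), where the groups overlapped. Without mouse 3 the in vivo difference was 0.0553 log2 units. The keratinocyte call was lost without all cells of mouse 1 (adjusted p = 0.0888) or of mouse 2 (0.0775).

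Among the type I members, Krt18, the partner of Krt8, stood at 3.16, 0.171 and 0.515 FPKM in ADSCs and at 4.68, 24.4 and 8.87 in in vitro iSEPs. It was 2.79, 2.66 and 95.5 in in vivo iSEPs and 27.5, 30.1 and 37.3 in keratinocytes. As for Krt8, the in vivo iSEPs of mouse 3 stood above all keratinocyte libraries and those of mice 1 and 2 within the ADSC range. Krt18 rose by 4.06 log2 units in keratinocytes against ADSCs (SE 1.08, limma adjusted p = 0.0085), a ratio of 24.7 that became 92.3 without the ADSCs of mouse 1. The differences of 2.53 in in vitro iSEPs (adjusted p = 0.0692, groups not overlapping) and 2.5 in in vivo iSEPs (adjusted p = 0.0789, groups overlapping) were not called. The in vivo difference was 0.94 log2 units without the library of mouse 3. With all libraries, both passed with a pseudocount of 0.1 in place of 1 (adjusted p = 0.0327 and 0.0429), and the keratinocyte call was lost without all cells of mouse 2 (0.0748).

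Krt19, a small type I keratin that lacks the tail found in other keratins, ran the other way. ADSCs held 17.8, 44.7 and 45.6 FPKM, in vitro iSEPs 2.99, 8.95 and 1.28, in vivo iSEPs 1.21, 4.03 and 4.58, and keratinocytes 17.5, 0.607 and 0.511. Outside ADSCs, the keratinocyte library of mouse 1 came nearest to the lowest ADSC library, and the other keratinocyte libraries were the lowest of all 12. Krt19 fell in all 3 comparisons with ADSCs: by 2.93 log2 units in in vitro iSEPs (limma adjusted p = 0.0171, 8.17-fold lower), by 3.11 in in vivo iSEPs (0.0141, 11-fold lower) and by 3.27 in keratinocytes (0.0098, 5.81-fold lower). Single libraries set the size of these ratios. Without the keratinocytes of mouse 1, Krt19 was 64.5-fold lower in keratinocytes (-4.46 log2 units). It was 16.8-fold lower in in vitro iSEPs when their mouse 2 library was left out. These calls did not hold in all alternatives. The in vitro call was lost in 5 of 22 alternatives (adjusted p up to 0.152), among them without the ADSCs of mouse 2 (0.0567) or mouse 3 (0.0571) or the in vitro iSEPs of mouse 3 (0.0681). The in vivo call was lost in 4, among them without the ADSCs of mouse 2 (0.0502) or the in vivo iSEPs of mouse 1 (0.0504), and the keratinocyte call without all cells of mouse 2 (0.137) or mouse 3 (0.122). As for Krt7, the listed transcript length (911 bases) differs from that in GENCODE under the same accession (1576 bases).

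Krt20 was found in ADSCs and hardly elsewhere. ADSCs held 4.06, 5.94 and 5.71 FPKM, in vivo iSEPs 0.037, 0.017 and 0.097, and keratinocytes 0.034, 0 and 0, while all 3 in vitro iSEP libraries were listed at 0. In reads, the ADSCs gave 896, the in vivo iSEPs 9, the keratinocytes 2 and the in vitro iSEPs 0. No ADSC library overlapped any other. Krt20 fell by 2.63 log2 units in in vitro iSEPs (limma adjusted p = 4.27e-08), by 2.56 in in vivo iSEPs (5.33e-08) and by 2.61 in keratinocytes (4.22e-08), and these calls held in every alternative that gave a value. Krt20 was kept among the genes tested (1 FPKM or more in at least 3 libraries) only through the ADSCs. Its lower level and its separation in the other groups were thereby fixed, so these calls and their stability are no independent support. The other Merkel cell markers were read beside it, since Krt20 also marks that cell type of the skin. The 12 Merkel markers summed to 24.7 to 46.4 FPKM in ADSCs, mostly from Cck (20 to 40.2), and to 0.638 to 1.01 in keratinocytes, while Atoh1 and Insm1 were listed at 0 in all 12 libraries and Sox2 at 0 in the ADSCs. Isl1, another factor of that cell type, reached 2.47 FPKM in ADSCs. The part of Merkel-type cells in the Krt20 level was not tested.

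Over the 5 members, 1 rose and 2 fell in in vitro iSEPs against ADSCs, where 53.8% of all genes tested were called (32.1% higher, 21.7% lower), and all 5 members had groups that did not overlap, against 63.7% of all genes. In in vivo iSEPs 1 rose and 2 fell, against 47.6% of genes called (27.6% higher, 20% lower), and 3 of 5 did not overlap (54.2% of genes). In keratinocytes 3 rose and 2 fell, against 53.5% called (32.8% higher, 20.7% lower), and 5 of 5 did not overlap (69.5% of genes). Each count of falls and of groups without overlap includes Krt20, which was kept only through the ADSCs and had to fall. The median log2 difference of the members was 1.38, 2.22 and 4.06 in these comparisons, beside 0.148, 0.136 and 0.184 over all genes, and centring the libraries on their medians changed none of these calls. A moderated F test over the 4 groups called 4 of 5 members, against 57.4% of genes, with Krt8 the exception (limma adjusted p = 0.0642). Without the in vivo iSEPs of mouse 3, the median of the members in in vivo iSEPs against ADSCs was 0.0553 log2 units, beside 0.182 over all genes. The members past the threshold were then 5 for keratinocytes (57.3% of all genes), 5 for in vitro iSEPs (57.8%) and 3 for in vivo iSEPs (50.8%).

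**Figure D2:**
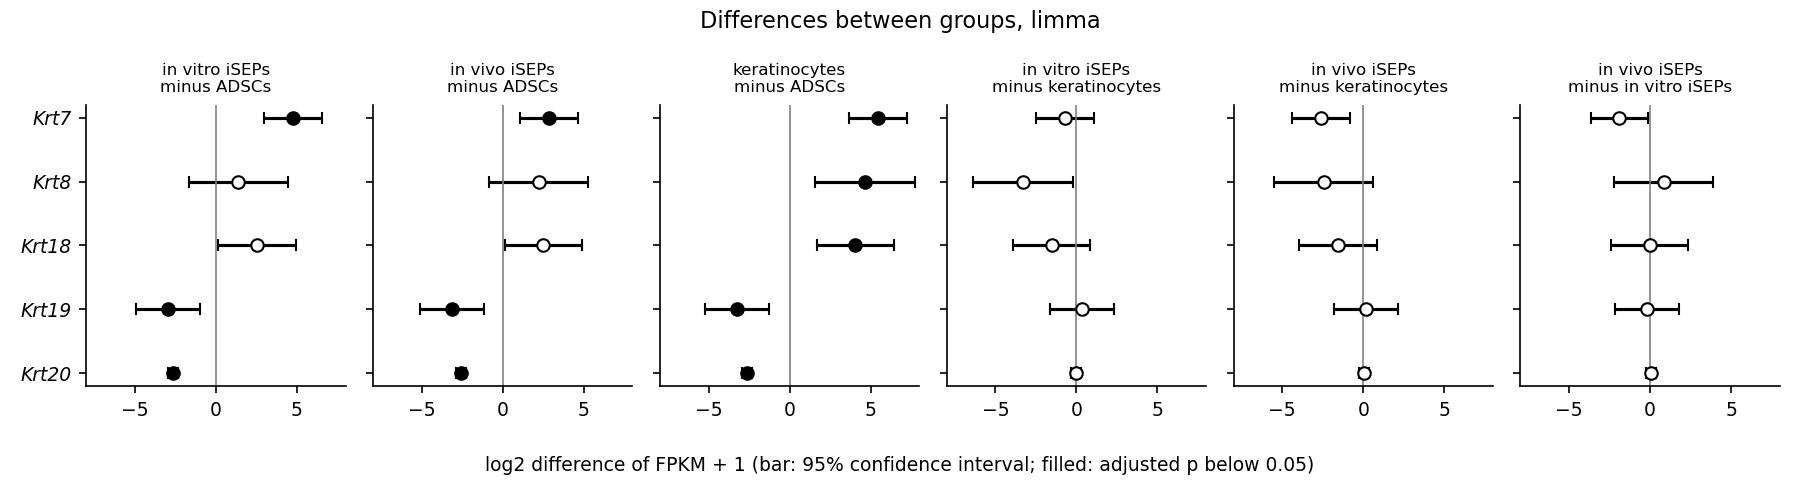
log2 difference of FPKM + 1 for each member in the 6 comparisons of groups, with its 95% confidence interval from limma, filled where the adjusted p was below 0.05. All 5 members were called in keratinocytes against ADSCs, 3 in each iSEP group against ADSCs, and none between the 3 epithelial groups.

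Between the epithelial groups no member was called by limma. In vitro iSEPs against keratinocytes had 0 of 5 called, against 11.3% of genes, and 1 member at an unadjusted p below 0.05. That member was Krt8, with a difference of -3.29 log2 units (95% interval -6.35 to -0.22, adjusted p = 0.151) and in vitro iSEP libraries all below the keratinocyte ones. Krt18 likewise did not overlap (-1.53, interval -3.91 to 0.86), and 40.8% of all genes showed such separation. Krt7 differed by -0.71 with an interval of -2.48 to 1.07. In a fit of these 6 libraries alone Krt8 was called (adjusted p = 0.0188). The fit without the in vivo iSEPs of mouse 3 leaves both of these groups as they were and changes only the pooled spread, so no call is taken from it.

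In vivo iSEPs against keratinocytes also had 0 of 5 called, against 7.48% of genes, with 1 at an unadjusted p below 0.05. Krt7 was the member nearest to the threshold, at -2.61 log2 units (interval -4.38 to -0.83, adjusted p = 0.0774) and the 1 member whose libraries did not overlap, against 27.8% of genes. With the mouse number as a replicate block it was called (adjusted p = 0.0199). Krt8 and Krt18 depended on the library of mouse 3. With it, their differences were -2.45 and -1.56 (adjusted p = 0.343 and 0.445). Without it, the differences from keratinocytes were -4.61 log2 units for Krt8, -3.12 for Krt18 and -3.51 for Krt7. Because the Krt8 and Krt18 values singled that library out, these differences are a description and no call is taken from them.

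In vivo against in vitro iSEPs had 0 of 5 called, against 1.63% of genes, and Krt7 (-1.90, adjusted p = 0.295) was the 1 member at an unadjusted p below 0.05. Libraries did not overlap for 1 member, Krt20, at the few reads given above, and for 15% of genes. The Krt8 difference, not called with all libraries, turned from 0.84 to -1.32 log2 units without the in vivo iSEPs of mouse 3.

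Some members spread widely within groups. On the log2 scale Krt8 in in vivo iSEPs had an SD of 3.74, larger than that of 99.98% of genes kept, and Krt18 there had 2.71 (99.9%). Both SDs rest on the library of mouse 3, which these values singled out, so their standing is a description. The libraries of mice 1 and 2 held 0.159 and 0.166 FPKM of Krt8 and 2.79 and 2.66 of Krt18. Krt19 in keratinocytes had an SD of 2.06, above 99.97% of genes, and Krt7 in in vitro iSEPs 1.49, above 99.4%. Krt18 and Krt8 in keratinocytes had SDs of 0.22 and 0.30, above 80.2% and 89.8% of genes there. At the other end were Krt8 in ADSCs, above 10.6% of genes, and Krt20 in in vivo iSEPs and keratinocytes, above 6.15% and 6.62%, where their levels were close to 0.

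The balance between the partners also differed between cultures. The ratio of Krt8 to Krt18, both per length, was 1.22, 0.727 and 0.747 in keratinocytes. It was 0.2, 0.294 and 0.0634 in in vitro iSEPs, 0.0387, 0.444 and 0.311 in ADSCs, and 0.0569 and 0.0624 in in vivo iSEPs of mice 1 and 2. The in vivo iSEPs of mouse 3 had a ratio of 1.08, inside the keratinocyte range. Krt18 thus exceeded Krt8 in every library but the keratinocytes of mouse 1 and the in vivo iSEPs of mouse 3.

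**Figure D3:**
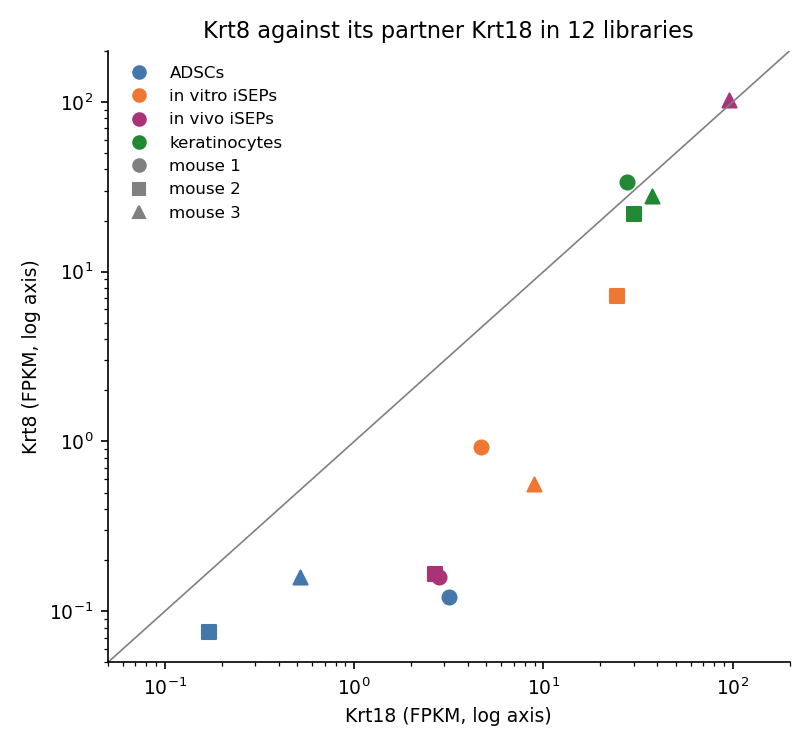
Krt8 against Krt18 in FPKM in the 12 libraries on log axes, coloured by group, with the symbol giving the mouse and the line marking equal levels. The keratinocytes and the in vivo iSEPs of mouse 3 lie near the line, and the other libraries lie below it.

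At the listed transcript lengths, Krt19 led the simple keratins in ADSCs and Krt7 in most epithelial libraries. The 5 members summed to 25.8, 51.5 and 53.3 FPKM in ADSCs, where Krt19 made up 69% to 86.7% of the sum. In keratinocytes the sum was 126, 163 and 169 FPKM, of which Krt7 made up 37.7% to 67.7%. Krt7 led in all in vitro iSEPs (sums of 23.9, 104 and 134 FPKM, 60.9% to 92% of it Krt7) and in in vivo iSEPs of mice 1 and 2 (9.2 and 14.7 FPKM). In the in vivo iSEPs of mouse 3 the sum was 249 FPKM and Krt8 led with 41.3%, followed by Krt18 with 38.3% and Krt7 with 18.6%. These shares and sums depend on the lengths. At the GENCODE lengths Krt19 still led in all 3 ADSC libraries (57.9% to 80% of the sum) and Krt7 in all 3 in vitro iSEP libraries (40.7% to 82.8%). The leading chain changed in the keratinocytes of mouse 1, from Krt7 to Krt8 (35.8%), and in the in vivo iSEPs of mouse 1, from Krt7 to Krt18 (49.1%).

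**Figure D4:**
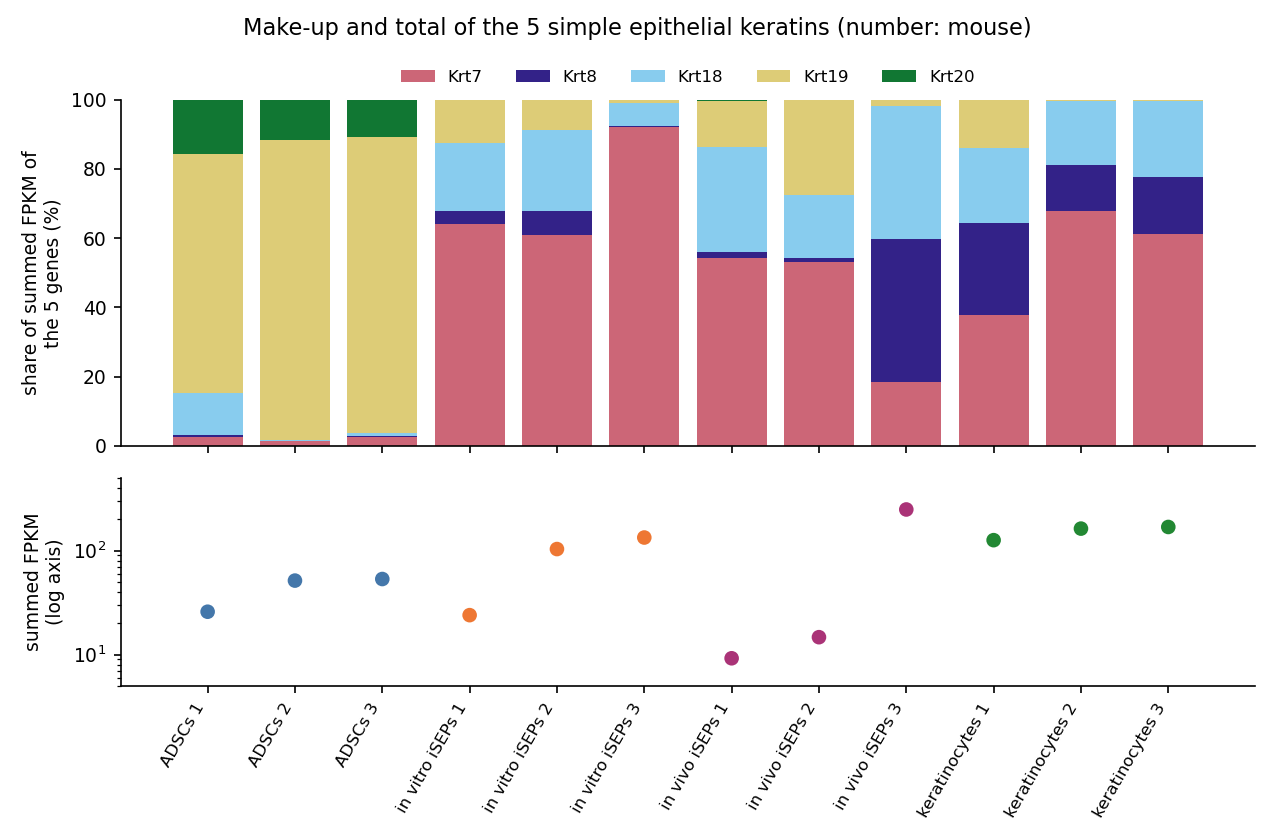
Share of each member in the summed FPKM of the 5 genes (upper panel, percent) and that sum (lower panel, FPKM on a log axis) for the 12 libraries. Krt19 and Krt20 fill most of the ADSC bars, Krt7 leads in the other epithelial libraries at the listed transcript lengths, and Krt8 with Krt18 leads in the in vivo iSEPs of mouse 3, whose sum of 249 FPKM is the highest.

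Beside the keratins of stratified epithelia the simple keratins were a small part. They made up 57.3%, 73.1% and 71.8% of the FPKM of all 55 keratin genes in ADSCs, but 0.489% to 0.615% in keratinocytes and 0.0828% to 0.411% in in vitro iSEPs. Among in vivo iSEPs the share was 0.0338%, 0.0612% and, for mouse 3, 1.74%, the highest of the epithelial libraries. The list of 15 stratified keratins had 12 tested, and against ADSCs 10 rose in the in vitro iSEPs, 7 in the in vivo iSEPs and 8 in the keratinocytes, and none fell. Over all genes tested, 53.8%, 47.6% and 53.5% were called in these comparisons (32.1%, 27.6% and 32.8% higher). The median log2 differences of the list were 5.48, 4 and 3.86, beside 0.148, 0.136 and 0.184 over all genes. Of the 15, only 5 reached 1 FPKM in at least 1 ADSC library. The other tested genes were kept only through the epithelial groups, so their rise was largely fixed. Krt5, the basal type II keratin, averaged 5.4 ± 0.32 FPKM in ADSCs against 8968 ± 422 in keratinocytes, 10274 ± 1276 in in vitro iSEPs and 7489 ± 3543 in in vivo iSEPs (SD, n = 3). Its partner Krt14 and the wound keratins Krt6a and Krt17 were the other 3 with the largest differences. Against keratinocytes, Krt10, a keratin of differentiating layers, was higher in in vitro iSEPs (43.4 ± 45.3 against 0.818 ± 0.163 FPKM, limma adjusted p = 0.0302), and Krt79 was lower in both iSEP groups (adjusted p = 0.0053 and 0.008).

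Of 16 other intermediate filament genes listed, 7 were tested, and 4 fell in each of the 3 comparisons with ADSCs: the mesenchymal filament Vim, the muscle filament Des, the progenitor filament Nes and Sync. The median log2 differences were -1.53, -1.62 and -1.62, beside 0.148, 0.136 and 0.184 over all genes. Of all genes tested, 21.7%, 20% and 20.7% were called lower there. Outside ADSCs, Des, Nes and Sync reached at most 0.153, 0.298 and 0.181 FPKM, so they were kept only through the ADSCs. Their fall was thereby largely fixed, and these counts and medians are no independent support. Of the 4, only Vim reached 1 FPKM outside ADSCs. Vim averaged 1295 ± 327 FPKM in ADSCs against 18.9 ± 0.93 in keratinocytes, 102 ± 54 in in vitro iSEPs and 73.7 ± 64.9 in in vivo iSEPs, and it was called higher in in vitro iSEPs than in keratinocytes (limma adjusted p = 0.0319). The nuclear filament Lmna was called in none of the 3 comparisons with ADSCs (its means were 213 to 277 FPKM).

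Of 14 keratin anchors and binding proteins, all tested, 9 rose and 2 fell in in vitro iSEPs, 10 rose and 1 fell in in vivo iSEPs, and 9 rose and 1 fell in keratinocytes against ADSCs. The shares of all genes called there were 53.8%, 47.6% and 53.5%. Median log2 differences of the list were 3.11, 3.09 and 3.33, beside 0.148, 0.136 and 0.184 over all genes. Of the 14, 8 reached 1 FPKM in at least 1 ADSC library. The rest were kept only through the other groups, so their rise was largely fixed. The largest rises were those of Dsp, the desmosomal plaque protein that binds keratin, of the plakophilins Pkp1 and Pkp3 and of Ppl. Dsp averaged 0.33 ± 0.037 FPKM in ADSCs against 375 ± 1.26 in keratinocytes, 571 ± 69.1 in in vitro iSEPs and 465 ± 5.12 in in vivo iSEPs. Pkp2, the plakophilin of simple epithelia and heart, fell in in vitro iSEPs (4.37 ± 0.918 against 11.4 ± 3.05 FPKM in ADSCs, limma adjusted p = 0.01) and was below keratinocytes there as well (adjusted p = 0.0241).

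Of 20 glandular and simple epithelial genes, 13 were tested. Against ADSCs, 11 rose in each iSEP group and 13 in keratinocytes, with median log2 differences of 4.68, 4.52 and 5.33. Of all genes tested, 32.1%, 27.6% and 32.8% were called higher in these comparisons. None of the 20 reached 1 FPKM in any ADSC library, so the 13 were kept only through the other groups. Their rise was thereby largely fixed, and these counts are no independent support. Cldn4 and Cdh1 were among the 4 largest in all 3 comparisons. Against keratinocytes, 3 were lower and 1 higher in in vitro iSEPs (11.3% of all genes called), and 4 were lower in in vivo iSEPs (7.48%). Epcam, the adhesion protein of simple epithelia, averaged 24.5 ± 11.3 FPKM in in vitro iSEPs and 146 ± 13.3 in keratinocytes (limma adjusted p = 0.0435), and Rab25 was 35.8 ± 8.83 in in vivo iSEPs against 69.4 ± 6.24 (adjusted p = 0.0065).

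The in vivo iSEP library of mouse 3 was examined as a description, with no test. Among its 7961 genes at 5 FPKM or more, Krt8 had the largest rise over the higher of the other in vivo iSEP libraries (6.48 log2 units) and Krt18 the fifth largest (4.67), while Krt7 ranked 70 (2.42). The others of the leading 10 were the actin Acta1 (5.21), Msln (4.82), Mal (4.81), the arginase Arg1 (4.62), Ctla2a (4.35), the tight junction protein Cldn3 (4.24), 2010109I03Rik (4.17) and Angptl7 (3.93). Epcam stood at 116 FPKM against 16.6 and 6.87 in mice 1 and 2, and Cldn4 at 353 against 45.6 and 29.8. The basal keratins were present but lower, with Krt5 at 3410 FPKM against 9804 and 9252, and Krt14 at 5621 against 9607 and 6968. Krt8 and Krt18 were thus high in a culture in which Epcam, Cldn3 and Cldn4 were high and both basal keratins low beside the other in vivo iSEPs. Falls were not ranked. Some mitosis genes, named after their values were seen and not counted as a set, stood lower there. In log2(FPKM + 1), Top2a was 2.36 against 6.54 in the higher of mice 1 and 2, and Plk1 1.42 against 4.26. Eif2s3y, a gene of the Y chromosome, was 4.69 against 1.12. The part of cell cycling or of the animals' sex in this library was not tested.

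**Figure D5:**
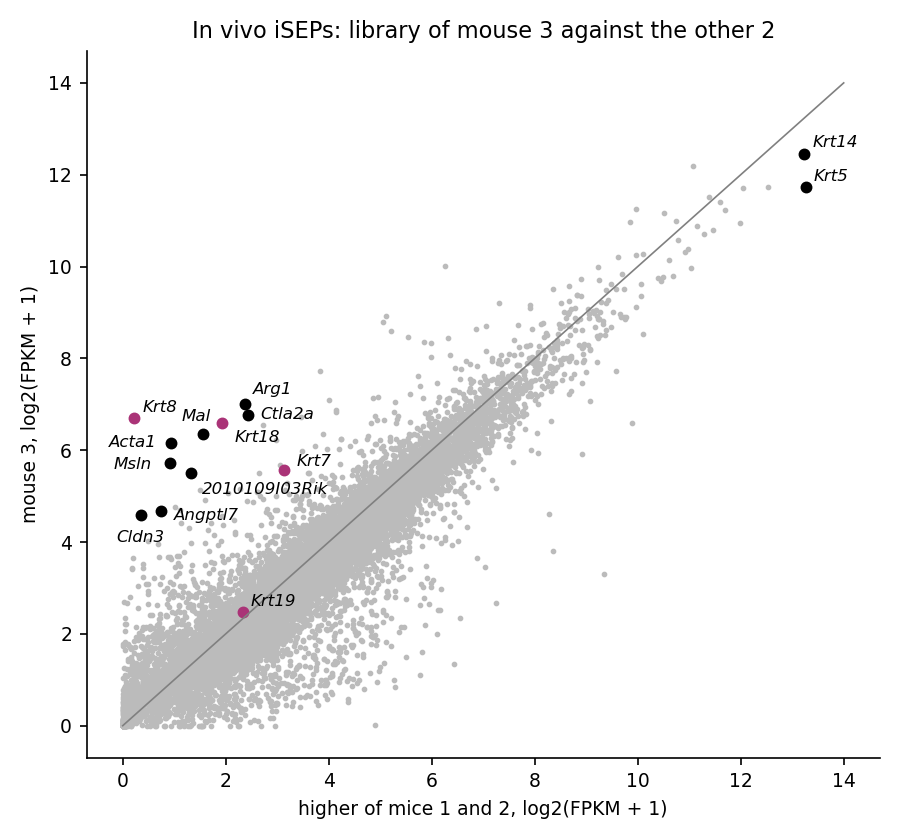
Each gene's log2(FPKM + 1) in the in vivo iSEPs of mouse 3 against the higher of mice 1 and 2, with the line marking equal levels, the members in purple and other named genes in black. Krt8 lies farthest above the line among genes at 5 FPKM or more, and Krt5 and Krt14 lie below it.

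Marker lists of other cell types were read in the same libraries, in the order of mice 1, 2 and 3. The 9 mesothelial markers matched summed to 14.8, 18.1 and 73.5 FPKM in in vivo iSEPs, against 38 to 64.7 in keratinocytes. Msln gave 52.1 FPKM of this in mouse 3, and the defining Wt1, Upk3b, Lrrn4, Gpm6a and Rspo1 were at or near 0 in all 12 libraries. The 14 mammary luminal markers summed to 4.78, 3.16 and 37.3, against 36.4 to 63.2 in keratinocytes, with 34.3 FPKM of it from Aldh1a3, and the milk genes Csn2, Lalba and Wap were listed at 0 throughout. The 12 Merkel markers summed to 17.1, 10.1 and 2.38 FPKM, mostly from Sox2 (16.8, 10 and 1.63), and without it to 0.238, 0.099 and 0.754. The 10 ADSC markers summed to 958, 1150 and 543, with 2, 3 and 7 of them at 1 FPKM or more. Most of this was Ly6a (929, 1100 and 370 FPKM), which was also high in keratinocytes, and without Ly6a the sums were 28.8, 50.8 and 173. Vim stood at 26.5, 47 and 148 FPKM in mice 1, 2 and 3, and Dcn, a stromal matrix protein, at 0.608, 1.29 and 12.7, both highest in mouse 3. The 20 glandular genes summed to 666, 788 and 1195. The part of other cell types in the Krt8 and Krt18 levels of this library was not tested.

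The genes whose profile over the 12 libraries was most like that of each member were ranked by the root mean square difference of centred log2(FPKM + 1) values, over 10177 genes reaching 5 FPKM. Krt18 ranked first for Krt8 (0.91 log2 units), followed by Cldn3 (1.02), Prss27 (1.06), Spns2 (1.11) and Mal (1.11), whereas Krt8 ranked 8 for Krt18. Nearest to Krt18 were Osbpl3 and Endod1 (0.83 each), Prl2c4, Prl2c3 and Cldn3 (0.87 each), where Prl2c3 and Prl2c4 belong to a family of near-identical copies that may share reads. Nearest to Krt7 were Itgb6 (0.80), Tmem102 (0.81), Ap1m2 (0.83), Mal2 (0.87) and Padi4 (0.88). Close to Krt19 were Rhoc (0.81), Slc38a1 (0.85), Unc5b (0.87) and Kdelr3 (0.88), with Krt20 at rank 91. Nearest to Krt20 were Dok5 (0.07), Ggt7 (0.10), A730020M07Rik (0.13), Megf10 (0.13) and Pknox2 (0.14), genes that stood at 4.37 to 6.52 FPKM on average in ADSCs and near 0 elsewhere. Beside Krt7, Krt18 ranked 98 and Krt8 792, whereas Krt19 ranked 9960 and Krt20 9716.

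Neighbouring genes gave a further view. Eif4b, the translation factor gene beside Krt18, stood at 101 to 199 FPKM in all 12 libraries and did not share the Krt18 pattern. Krt78, beside Krt8, was highest in in vitro iSEPs (28.5, 5.09 and 15.3 FPKM) and held 4.22, 0.502 and 9.33 in in vivo iSEPs. Krt23, beside Krt20, had 0.629, 0.324 and 11.8 FPKM in in vivo iSEPs, again highest in mouse 3 of that group. It also reached 38.8 FPKM in the keratinocytes and 12.2 in the in vitro iSEPs of mouse 1. In ADSCs, where Krt20 was highest, Krt23 was at most 0.07. Krt12, the nearer gene on the other side of Krt20, was at most 0.051 FPKM in any library. Krt15, beside Krt19, stood at 0 to 0.021 FPKM in ADSCs and at 66.8 in the in vitro iSEPs of mouse 1. Krt19 and Krt20 were thus highest in ADSCs while Krt15 and Krt23 beside them were near 0 there. The Krt8 gene overlaps the non-coding Gm36026 by 271 bases and Krt7 overlaps the antisense gene Gm671 by 1269 bases, so without stranded libraries reads there cannot be told apart. Among GENCODE transcripts, 1 other gene matched Krt18 over at least 50% of its length (Gm5200, 90.45% identity), which may share reads with it. Over shorter stretches Krt8 matched Krt8-ps, and Krt7 matched 41 other genes.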

How the data were processed

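RNA of 12 cultures was sequenced with an Illumina TruSeq RNA kit, per the labels' protocols. Strand marking by that kit: not given in the sources used here. As 1 table, the authors deposited FPKM values for 24537 genes, made with HOMER from RefSeq exons on the transcript's strand with 1 entry per gene in mm10, per the file headers. The submitters' processing notes name FastQC 0.11.5, STAR 2.5.1b, HOMER and mm10. A further 3 sample columns of the table have names matching none of the samples and were left unused. Low FPKM were whole multiples of 1 read (tolerance 0.15) in 100% of low values, which gave 20950000 to 27720000 reads in listed genes per library; values resting on few reads are imprecise.

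The 12364 genes that reached 1 FPKM in 3 or more of 12 libraries were kept. log2(FPKM + 1) values were fitted with limma 3.58.1 (R 4.3.3) as 4 group means with a mean-dependent variance trend and 8 residual degrees of freedom, and 6 two-sided contrasts and a moderated F were tested with Benjamini-Hochberg adjustment; the script was tested on simulated data. The fit pools the spread of groups whose median log2 SD ran from 0.117 (keratinocytes) to 0.253 (in vivo iSEPs). Mouse numbers mark the same animals, per the labels. Deviations from group means correlated at -0.178 to 0.21 (median 0.0451) in 18 same-mouse pairs and at -0.294 to 0.312 (median -0.0136) in 36 other pairs. A fit with the mouse as replicate block, other pseudocounts, filters and scalings, a fit of 2 groups, and leaving out libraries or mice were run as alternatives.

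The members and the 14 gene lists (159 of 160 genes matched) were chosen with earlier results of these data known. Named genes are the members, the 5 genes most like each, up to 4 called genes per list with the largest difference, and the 10 genes with the largest rise in the in vivo iSEPs of mouse 3; other genes were named after their values were seen, among them Epcam, Cldn4, Krt5, Krt14, Dcn, Lmna, Pkp2 and the neighbours of members. Lists of sweat and sebaceous gland, hair follicle stem cell, endothelial, immune and melanocyte markers summed in in vivo iSEPs of mice 1, 2 and 3 to 13.5, 27.6 and 32.7, to 23.6, 22.8 and 38.5, to 9.88, 1.67 and 1.96, to 9.92, 22.6 and 14.9, and to 3.78, 1.64 and 3.51 FPKM. Some genes covered by the rule for named genes are not reported here. Copies were sought among GENCODE transcripts with blastn 2.17.0 at 90% identity over 50% of the length. Promoter sequences are RefSeq's (GRCm38.p6).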

Additional observations from a re-analysis of the deposited data

How the results depend on the processing

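With the mouse as replicate block, 1 member was called in in vivo iSEPs against keratinocytes (Krt7), and 128 genes against 201 in in vivo against in vitro iSEPs; the block changed no other call of a member. In fits of only the 2 groups compared, 1 member was called in in vitro iSEPs against keratinocytes (Krt8). Krt18 in in vitro iSEPs against ADSCs, not called in the main fit, was called there as well. Those fits gave 424 genes against 925 in in vivo iSEPs against keratinocytes, and 1 gene in in vivo against in vitro iSEPs. Median scaling turned Krt20 in in vitro iSEPs against keratinocytes to 0.0143 and Krt18 in in vivo against in vitro iSEPs to 0.0118 log2 units, and quantile normalization turned the latter to 0.0257; none of these was called.

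Leaving out 1 library or 1 mouse moved the genes called against ADSCs to between 4295 and 7152 (in vitro iSEPs), 3486 and 6281 (in vivo iSEPs) and 3920 and 7087 (keratinocytes). Against keratinocytes it gave 193 to 2107 (in vitro) and 35 to 1676 (in vivo), and 2 to 360 in in vivo against in vitro iSEPs, each time fewest without mouse 2. The members called ranged from 2 to 5, 1 to 4 and 2 to 5 against ADSCs, 0 to 1 (in vitro) and 0 to 3 (in vivo) against keratinocytes, 0 to 0 between iSEP groups, and 2 to 5 in the F test. The upper ends for in vitro iSEPs against ADSCs and for both iSEP groups against keratinocytes were reached without the in vivo iSEPs of mouse 3. No call is taken from that fit. Uncalled log2 differences changed sign for Krt18 (-1.69 to 1.35), Krt19 (-0.92 to 0.39) and Krt8 (-1.77 to 2.66) in in vivo against in vitro iSEPs, for Krt7 (-1.35 to 0.11) and Krt19 (-0.81 to 1.61) in in vitro iSEPs against keratinocytes, and for Krt19 (-0.71 to 1.76) in in vivo iSEPs against keratinocytes. The cause was not tested. Krt20 was not kept at a filter of 5 FPKM and has no value there.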
